A study of Mus musculus with 10 samples.

Results

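The 40 genes described here encode antioxidant enzymes and targets of NRF2 in primary mouse hepatocytes, the parenchymal cells of the liver, exposed to a free fatty acid (FFA) with or without Neurotropin (NTP), a non-protein extract of inflamed rabbit skin used against chronic pain. They were chosen by symbol, with earlier results of these data known, and all 40 were found among the 18055 genes listed in any library and all passed the filter on low counts that left 14097 genes for testing. By role, 15 remove superoxide and peroxides, 8 belong to the thioredoxin system, 8 to glutathione and NADPH supply, and 9 to NRF2 control and its stress targets.

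Cells came from C57BL/6 mice, were plated in medium with serum and, by the study's methods, kept in serum-free medium overnight before treatment. The 5 groups held 2 libraries each. Vehicle cells received neither FFA nor NTP. PA cells received 200 uM palmitate and LA cells 12 uM linoleate for 24 h, and the PA+NTP and LA+NTP groups were pretreated with NTP for 1 h before the same FFA. The labels give no dose of NTP, no age or sex of the mice, and do not say whether the libraries came from separate animals or cultures, so the p-values measure only the spread between these libraries. No group received NTP without an FFA. Because the doses of palmitate and linoleate differed, the FFA effects are set side by side and not compared, and a test across them was made of the NTP effects alone.

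NRF2, encoded by Nfe2l2, is a transcription factor that KEAP1 marks for destruction in resting cells. Oxidants and electrophiles modify KEAP1, and the NRF2 that then accumulates binds antioxidant response elements (ARE) together with a small MAF protein. Its targets include enzymes that make glutathione, reduce thioredoxin and supply NADPH. Superoxide dismutases turn superoxide into hydrogen peroxide, which catalase, glutathione peroxidases and peroxiredoxins remove. The liver is rich in these enzymes because fatty acid oxidation and drug metabolism release hydrogen peroxide there.

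The RefSeq promoter windows of GRCm38.p6, each from 250 bases before to 50 bases after an annotated gene start, covered 34 of the 40 genes. Sod3, Prdx6, Msra, Gclc, Gsr and Hmox1 had none. The ARE core TGACNNNGC, searched on both strands, was present in 9 of these 34 genes (26.5%), against 14.0% of all 27025 genes with a window. The sites of 6 genes whose values with palmitate or NTP passed the adjusted p in the results that follow are shown as examples, with the core in capitals.

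Prdx1, chr4:116685458-116685482, minus strand: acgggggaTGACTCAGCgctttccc

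Mt2, chr8:94172531-94172555, plus strand: agggggtgTGACTCAGCgcgggggg

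Gclm, chr3:122245415-122245439, minus strand: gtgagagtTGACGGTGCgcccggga

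Txnrd1, chr10:82859106-82859130, minus strand: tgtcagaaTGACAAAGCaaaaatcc

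Srxn1, chr2:152105544-152105568, minus strand: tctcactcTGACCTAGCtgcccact

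Pgd, chr4:149166063-149166087, minus strand: ttcagagcTGACATTGCactgatcg

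Counted along the gene from the start on which the window was set, the cores began at -133 in Prdx1, -79 in Mt2, -134 in Gclm and -92 in Txnrd1, and at 29 in Srxn1 and 4 in Pgd. In Gclm, Txnrd1 and Pgd this was a start of a transcript that begins inside the annotated gene. The sites of Txnrd1 and Pgd, like that of Srxn1, lie within the annotated gene. The sites of Prdx1 and Mt2 share the core TGACTCAGC. The other genes with a core in a window were G6pdx and Sod1, which also passed the adjusted p in at least 1 of these contrasts, and Nfe2l2.

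The metallothionein genes Mt1 and Mt2, whose products bind zinc and copper and scavenge radicals, lie next to each other on chromosome 8 and are also driven through metal response elements (MRE). The MRE cores TGCACNC and TGCGCNC matched on either strand in 11 of the 34 genes (32.4%), close to the 28.2% of all genes searched. Mt1 held 3 matches and Mt2 held 4 in windows of 300 bases. The match that lies closest before the start of each window's transcript is shown, again with the core in capitals. That of Mt1 lies inside the annotated gene.

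Mt1, chr8:94179058-94179080, plus strand: tcccgctgTGCACACtggcgctc

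Mt2, chr8:94172560-94172582, minus strand: acagagccTGCACACgccctccc

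A match of letters is a description of the window and was not tested as a binding site.

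Levels are given as FPKM (fragments per kilobase of transcript, scaled to the library's total), which allows levels of different genes to be compared. In Vehicle, Prdx1 was the most abundant of the 40 genes, with 1082 and 1099 FPKM, and ranked 73 among all genes. Gpx1 (864 and 844), Cat (619 and 621), Sod1 (589 and 562), Gpx4 (514 and 515) and Osgin1 (451 and 463) followed. At the other end, Gpx3, Gpx8 and Sod3 were below 1.5 FPKM in both libraries. Summed over a role, the genes for superoxide and peroxide removal reached 4630 and 4580 FPKM in Vehicle, above the sum of any other role in both libraries.

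**Figure D1:**
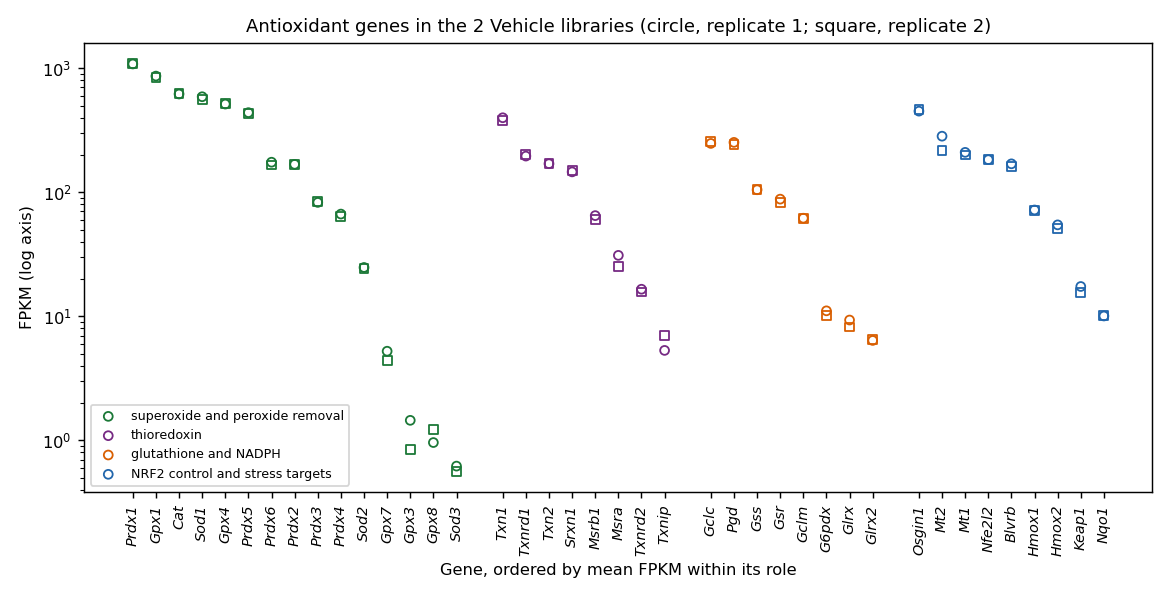
FPKM of the 40 genes in the 2 Vehicle libraries on a log axis, with genes ordered by mean level within each role and a symbol for each library. Prdx1 stood highest at 1082 and 1099 FPKM and Sod3 lowest at 0.62 and 0.56.

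Between 13142588 and 60046937 expected counts were assigned to genes in a library. In every library, the deviation of a gene's count from the mean over libraries was correlated with the GC content of its transcripts, across 13925 genes. Spearman's rho was between 0.34 and 0.57 in the 6 libraries of Vehicle, PA+NTP and LA+NTP and between -0.57 and -0.47 in the 4 libraries of PA and LA. The trend thus ran along the groups compared, and a trend that arose in library preparation and one that arose in the cells cannot be told apart here. Beside the calls, and beside other values where it moved them, the value after a smooth GC trend was removed from every library is therefore given. The 40 genes had a median GC content of 51.9% (42.1% to 60.0%), against 50.1% over all genes tested.

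Hepatocyte markers ranged widely in level, with Alb between 1929 and 2818 FPKM over the libraries. Cps1 (1.52 to 4.61 FPKM), Tat (3.64 to 8.51) and Asgr1 (7.86 to 13.96) were low in every library. The summed FPKM of 10 hepatocyte markers was 5650 to 5970 in Vehicle, 4000 to 4320 in PA, 4590 to 5270 in PA+NTP, 5830 to 5970 in LA and 6610 to 6880 in LA+NTP. Of these 10, Apoa1, Hnf4a, Serpina1b and Ttr were called lower with palmitate, and Hnf4a no longer so after removal of the GC trend, at backgrounds of 8.92% and 5.32% of all genes called lower. The part of this shift in the results was not tested, and in such bulk libraries fewer cells of a type and less RNA per cell cannot be told apart. The summed FPKM of 6 cholangiocyte markers was 21.8 to 24.5 in Vehicle, 14.4 to 15.3 in PA and 17.3 to 17.4 in LA. It was 23.7 to 24.6 in PA+NTP and 25.1 to 26.5 in LA+NTP. For 7 endothelial markers it was 39.6 to 39.7 in Vehicle and 29.1 to 30.9 in PA. For 8 stellate cell markers it was lowest in PA, at 25.9 to 26.3. Each sum was higher with NTP than with the same FFA alone. The part of these cells in the results was not tested. Of 5 neutrophil markers, S100a8, S100a9, Ly6g and Mpo were listed in no library and were set to 0. Csf3r stood at 0.28 to 0.55 FPKM.

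A gene was called when its Benjamini-Hochberg adjusted p in edgeR's quasi-likelihood test was under 0.05 and its fold change was at least 1.5 (0.585 on the log2 scale). Fold changes below are log2 values from this fit with their standard error (SE). In the RefSeq table of GRCm38.p6, the genes with the largest fold changes included Sod3 (NCBI gene 20657) at chr5:52363804-52369738, Osgin1 (71839) at chr8:119425882-119446257 and Sod2 (20656) at chr17:13007839-13018119. Prdx1 (18477) lies at chr4:116685599-116700000 and Gsr (14782) at chr8:33653238-33698162. Of the 21 calls made among the 40 genes over all contrasts, 4 lay within 0.02 above that fold threshold.

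Palmitate changed 6 of the 40 genes, 3 higher and 3 lower. The background was 14.9% of all genes tested, with 6.00% higher and 8.92% lower, so the share called among the 40 was near it. Sod2, Prdx1 and Gsr rose, and Sod3, Msra and Osgin1 fell. At an adjusted p under 0.05 with any fold, 22 of the 40 genes passed, 13 higher and 9 lower, against 45.5% of all genes (23.5% higher and 22.0% lower). The median fold change of the 40 genes was 0.092, against -0.008 over all genes tested. With the GC trend removed, 7 of the 40 were called, 5 higher and 2 lower, at a background of 8.52% (3.20% higher and 5.32% lower).

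With linoleate, Sod3, Osgin1 and Mt2 fell and no gene of the 40 rose. The background was 10.6%, with 3.53% of all genes called higher and 7.11% lower. At any fold, 15 of the 40 genes passed the adjusted p, 4 higher and 11 lower, against 41.3% of all genes (20.8% higher and 20.5% lower). The median fold change was -0.027, against -0.007 over all genes tested. Sod3 alone, lower, was called once the GC trend was removed, at a background of 3.30% (2.39% lower).

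NTP given before palmitate left 4 genes called against PA, with Sod3, Osgin1 and Mt2 higher and Prdx1 lower, at a background of 13.9% (8.74% higher and 5.11% lower). At any fold 25 of the 40 genes passed, 10 higher and 15 lower, against 44.7% of all genes (21.7% higher and 23.0% lower), and the median fold change was 0.005. Once the GC trend was removed, 3 genes were called at a background of 6.09% (4.05% higher and 2.04% lower), namely Sod3 higher and Prdx5 and Srxn1 lower.

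NTP given before linoleate left 7 genes called against LA. Sod3, Gpx4, Msra, Msrb1, Osgin1 and Mt2 were higher and Prdx1 was lower, at a background of 19.3% (11.7% higher and 7.57% lower). At any fold 23 of the 40 genes passed, 14 higher and 9 lower, against 51.5% of all genes (25.9% higher and 25.6% lower), and the median fold change was 0.065. None of the 40 genes was called after removal of the GC trend, when 5.73% of all genes were. The NTP contrasts share the PA and LA libraries with the contrasts against Vehicle, so their values for a gene are not independent of each other.

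**Figure D2:**
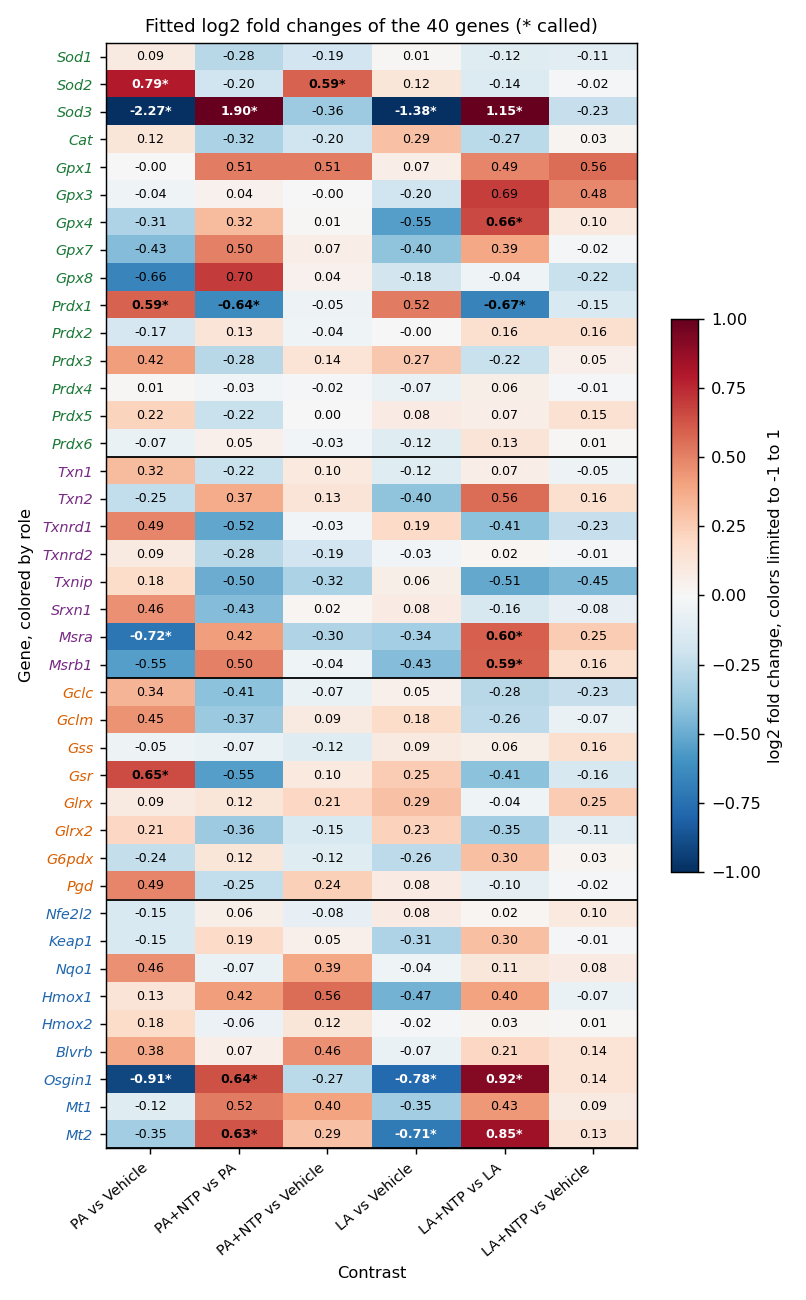
Fitted log2 fold changes of the 40 genes (rows, colored by role) in 6 contrasts (columns), with an asterisk on called genes and colors limited to -1 to 1. Sod3 showed the largest values, -2.27 with palmitate and 1.90 with NTP before palmitate, and LA+NTP against Vehicle held no asterisk.

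Among the superoxide dismutases, Sod2, the manganese enzyme of the mitochondrial matrix, was measured at 24.8 and 24.4 FPKM in Vehicle and 43.4 and 39.9 in PA. It remained at 39.2 and 36.0 in PA+NTP, and stood at 26.0 and 25.7 in LA and 24.9 and 23.3 in LA+NTP. The 4 libraries with palmitate were above the other 6 without overlap. Sod2 rose with palmitate by 0.79 (SE 0.07, adjusted p = 9.3e-07), or 0.46 after removal of the GC trend, under the fold threshold. It was also called in PA+NTP against Vehicle, by 0.59 (SE 0.06, adjusted p = 8.45e-05) and 0.61 after removal of the GC trend. This last call sits at the fold threshold and was lost without Vehicle 2, PA 1, PA 2, PA+NTP 1, LA 1, LA 2 or LA+NTP 2, at values of 0.55 to 0.58. Against PA, the value with NTP was -0.20 (adjusted p = 0.0182), and its sign turned to 0.14 after removal of the GC trend. Removal also turned the linoleate value from 0.12 to -0.23 (adjusted p = 0.032). The value of LA+NTP against LA turned from -0.14 to 0.29 (adjusted p = 0.005). Part of the transcript sequence of Sod2, 26.6% of its words of 31 bases, also occurs in transcripts of other genes, so reads of it may be divided among them.

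Sod3, the extracellular superoxide dismutase, showed the largest fold changes and rested on few reads. Its expected counts were 24 and 31 in Vehicle, 2 and 11 in PA, 26 and 34 in PA+NTP, 13 and 12 in LA, and 34 and 66 in LA+NTP. In FPKM these were 0.62 and 0.56, 0.07 and 0.14, 0.41 and 0.52, 0.20 and 0.25, and 0.46 and 0.54. Both FFA groups were below the other groups without overlap. Sod3 fell by 2.27 on the log2 scale with palmitate (SE 0.46, adjusted p = 0.00113) and by 1.38 with linoleate (SE 0.41, adjusted p = 0.0146). It was higher with NTP by 1.90 over PA (SE 0.46, adjusted p = 0.00379) and by 1.15 over LA (SE 0.39, adjusted p = 0.0238).

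From summed counts scaled to library size, Sod3 was 4.83-fold higher in Vehicle than in PA (exact 95% counting interval 2.61 to 9.64) and 2.7-fold higher than in LA (1.65 to 4.52). PA+NTP exceeded PA 3.85-fold (2.09 to 7.64) and LA+NTP exceeded LA 2.33-fold (1.49 to 3.78). These intervals cover counting error only. Without the GC trend the values were -2.14, -1.24, 1.78 and 0.98 in the order palmitate, linoleate, PA+NTP against PA and LA+NTP against LA, the last no longer called (adjusted p = 0.0787). The linoleate call was lost without Vehicle 1 (-1.30), Vehicle 2 (-1.45) or LA 1 (-1.20), and the call of LA+NTP against LA without LA 1 (0.97), LA 2 (1.30), LA+NTP 1 (1.24) or LA+NTP 2 (1.02). The palmitate value was -2.92 without PA 2 and -2.06 without PA 1, and the value of PA+NTP against PA was 2.55 without PA 2. On the log2(FPKM + 1) scale, which understates changes of low genes, limma gave -0.53, -0.38, 0.41 and 0.29, none of which reached the fold threshold. In DESeq2 the value of LA+NTP against LA was 1.14 (adjusted p = 0.0775) and was not called.

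Sod1, the cytosolic copper and zinc enzyme, and Cat, the peroxisomal catalase, were not called in any contrast. Cat ranged from 528 to 739 FPKM and Sod1 from 504 to 636 over all libraries. Cat had values of 0.29 with linoleate, -0.32 in PA+NTP against PA and -0.27 in LA+NTP against LA, all past the adjusted p, the last no longer so after removal of the GC trend (-0.19). Sod1 had a value of -0.28 in PA+NTP against PA (adjusted p = 0.00323), or -0.44 after removal. Its palmitate value moved from 0.09 to 0.24 (adjusted p = 0.0151) on removal. That of LA+NTP against LA moved from -0.12 to -0.31 (adjusted p = 0.00343).

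Prdx1, a cytosolic peroxiredoxin that reduces hydrogen peroxide with electrons from thioredoxin, stood at 1082 and 1099 FPKM in Vehicle. It was measured at 1519.5 and 1691 in PA, 1014 and 1132 in PA+NTP, 1564 and 1474 in LA, and 955 and 1005 in LA+NTP. All 4 libraries with an FFA alone were above the other 6. The gene rose by 0.59 with palmitate (SE 0.07, adjusted p = 2.07e-05) and had a value of 0.52 with linoleate (adjusted p = 6.81e-05), under the fold threshold. With NTP it fell by 0.64 against PA (adjusted p = 1.07e-05) and by 0.67 against LA (adjusted p = 4.03e-06). Its transcripts are among the poorest in GC of the 40 (42.3%), and after removal of the GC trend the 4 values were 0.27, 0.18, -0.30 and -0.24, none of them called.

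The Prdx1 call with palmitate was lost without Vehicle 1 (0.58) or PA 2 (0.52), and that of PA+NTP against PA without PA 2 (-0.57) or PA+NTP 1 (-0.54). Both calls were also lost with scaling by library size alone (0.56 and -0.58) and in limma on log2(FPKM + 1) (0.56 and -0.58). A fit of only the groups compared lost the palmitate call as well (0.58). Prdx1 shares 15.2% of its sequence words with transcripts of 215 other genes, Gm21399 and Gm7204 among them. The effect of this on its counts was not tested.

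Gpx1, the selenium-dependent glutathione peroxidase of cytosol and mitochondria, was measured at 864 and 844 FPKM in Vehicle, 825 and 840.0 in PA and 872 and 862 in LA. In PA+NTP it reached 1235 and 1235, and in LA+NTP 1227 and 1273. The 4 libraries with NTP were therefore above the 6 without it, although no contrast passed the fold threshold. The values were 0.51 in PA+NTP against PA (SE 0.05, adjusted p = 6.23e-06) and 0.49 in LA+NTP against LA (SE 0.05, adjusted p = 5.23e-06). With the GC trend removed they were 0.17 (adjusted p = 0.036) and 0.04 (adjusted p = 0.669). Against Vehicle, the value of PA moved from -0.0030 to 0.32 (adjusted p = 0.000691) and that of LA from 0.07 to 0.42 (adjusted p = 0.000246), so the pattern by NTP depended on the GC trend. PA+NTP differed from Vehicle by 0.51 (adjusted p = 7.05e-05) and LA+NTP by 0.56 (adjusted p = 0.000763), or 0.48 and 0.46 after removal, and Gpx1 was the only one of the 40 genes past the adjusted p in LA+NTP against Vehicle.

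Gpx4, which reduces lipid peroxides in membranes and protects against ferroptosis, was measured at 514 and 515 FPKM in Vehicle, 412 and 401 in PA, and 525 and 531 in PA+NTP. In LA it stood at 369.9 and 308 and in LA+NTP at 559 and 543. Both FFA groups lay below the other groups. It rose in LA+NTP against LA by 0.66 (SE 0.07, adjusted p = 5.14e-06). The values with palmitate, with linoleate and in PA+NTP against PA were -0.31, -0.55 and 0.32, all past the adjusted p and under the fold threshold. Removal of the GC trend left 0.07 in LA+NTP against LA (adjusted p = 0.557), and turned the palmitate value to 0.11 and that of PA+NTP against PA to -0.13, and the linoleate value became -0.09 (adjusted p = 0.443). Its transcripts hold 59.5% GC, and 38.9% of their sequence words are shared with the pseudogene Gpx4-ps2 and one other gene. The call was also lost without LA 2 (0.53), and the linoleate value was -0.69 and past the fold threshold without LA 1.

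The other 10 genes of this role, of which Sod1 and Cat were given above, were not called. Prdx3, the peroxiredoxin of mitochondria, passed the adjusted p in all 4 contrasts with values of 0.42 with palmitate, 0.27 with linoleate, -0.28 in PA+NTP against PA and -0.22 in LA+NTP against LA. Of these only the palmitate value (0.22) still passed once the GC trend was removed. Prdx5, found in mitochondria, peroxisomes and cytosol, went the other way. Its palmitate value of 0.22 became 0.59 (adjusted p = 3.44e-05) and was called after removal. So was its value in PA+NTP against PA, which moved from -0.22 to -0.61 (adjusted p = 3.71e-05). The linoleate value of Prdx5 moved from 0.08 to 0.49 (adjusted p = 0.000372). That of LA+NTP against LA moved from 0.07 to -0.45 (adjusted p = 0.000276), and neither was called. Prdx2, a cytosolic peroxiredoxin, had values of -0.17 with palmitate and 0.16 in LA+NTP against LA, past the adjusted p only before removal. Gpx3, Gpx7, Gpx8, Prdx4 and Prdx6 passed no adjusted p in these 4 contrasts. After removal of the GC trend Prdx6 passed it with linoleate (-0.23, adjusted p = 0.0309) and in LA+NTP against LA (0.27, adjusted p = 0.00815). Gpx8, a peroxidase of the endoplasmic reticulum read at 18 and 33 counts in Vehicle and 8 and 28 in PA, had values of -0.66 with palmitate (SE 0.42) and 0.70 in PA+NTP against PA (SE 0.40).

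**Figure D3:**
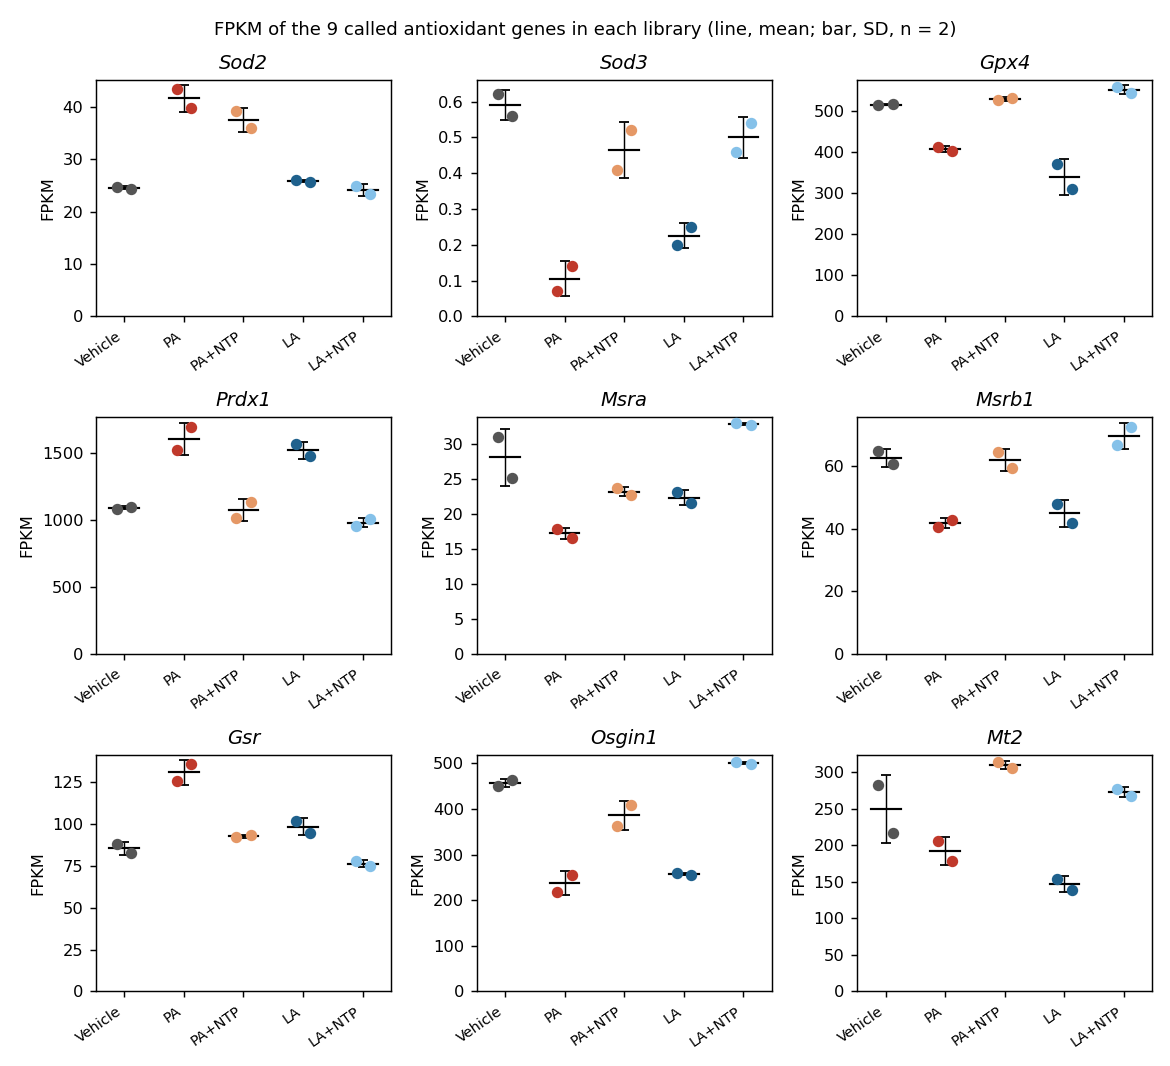
FPKM of the 9 genes called in at least 1 of the contrasts with an FFA or NTP, in each of the 10 libraries, with the mean as a line and the SD as a bar (n = 2), each axis starting at 0. Sod2 stayed at 39.2 and 36.0 in PA+NTP, whereas Prdx1 stood at 1014 and 1132 there, near its Vehicle level.

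In the thioredoxin system, Msra was called with palmitate and Msra and Msrb1 with NTP before linoleate, while 6 of the 8 genes passed the adjusted p at any fold with palmitate, 3 in each direction, against the 45.5% of all genes given above (23.5% higher and 22.0% lower). Msra, which repairs oxidized methionine, was measured at 30.99 and 25.19 FPKM in Vehicle and 17.8 and 16.6 in PA. It stood at 23.7 and 22.8 in PA+NTP, 23.2 and 21.6 in LA, and 33.0 and 32.8 in LA+NTP. The PA libraries were the lowest of all 10. Msra fell by 0.72 with palmitate (SE 0.10, adjusted p = 4.3e-05) and by 0.66 after removal of the GC trend, which kept the call. In LA+NTP against LA it rose by 0.60 (SE 0.09, adjusted p = 7.28e-05), or 0.52 after removal, under the fold threshold. Without Vehicle 1 the palmitate value was -0.58 and missed that threshold. The call of LA+NTP against LA was lost without PA+NTP 1, PA+NTP 2, LA 2 or LA+NTP 1, at 0.56 to 0.58.

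Msrb1, a selenoprotein that repairs the other stereoisomer of oxidized methionine, showed 64.8 and 60.7 FPKM in Vehicle, 40.7 and 43.0 in PA, and 64.6 and 59.5 in PA+NTP. It showed 48.1 and 41.9 in LA and 66.7 and 72.8 in LA+NTP. The PA and LA libraries were below all others. The rise in LA+NTP against LA was 0.59 (SE 0.08, adjusted p = 3.01e-05), just past the fold threshold, and became 0.32 after removal of the GC trend. It was lost without PA+NTP 1 (0.57), PA+NTP 2 (0.57), LA 2 (0.49) or LA+NTP 2 (0.52). The palmitate value of -0.55, or -0.35 after removal, passed the adjusted p (0.000133) and missed the fold threshold, which it passed without Vehicle 2 (-0.60).

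Txn1, the cytosolic thioredoxin, was the most abundant gene of this system at 399 and 376 FPKM in Vehicle. It was measured at 464 and 478 in PA, 379 and 465 in PA+NTP, 365 and 324 in LA, and 358 and 386 in LA+NTP, and the PA and PA+NTP libraries overlapped. Its palmitate value was 0.32 (SE 0.09, adjusted p = 0.0115), and 0.20 (adjusted p = 0.11) after removal of the GC trend. Txnrd1, the reductase that recharges thioredoxin with NADPH, showed 196 and 203 FPKM in Vehicle, 261 and 291 in PA, 182 and 216 in PA+NTP, 224 and 219 in LA, and 173 and 166 in LA+NTP. The PA libraries were the highest of the 10.

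The palmitate value of Txnrd1 was 0.49 (SE 0.08, adjusted p = 0.000223), and its values with NTP were -0.52 against PA (adjusted p = 0.000144) and -0.41 against LA (adjusted p = 0.000628). None reached the fold threshold, and removal of the GC trend left the values at 0.49, -0.52 and -0.41. Without PA 1 the value of PA+NTP against PA was -0.59, and without PA+NTP 2 it was -0.68, both past the fold threshold. Srxn1, the sulfiredoxin that restores overoxidized peroxiredoxins, showed a like pattern. Its palmitate value was 0.46 and became 0.61 (adjusted p = 4.05e-05) after removal of the GC trend, and its value in PA+NTP against PA moved from -0.43 to -0.59 (adjusted p = 6.44e-05). Both were called only after removal. The linoleate value of Srxn1 moved from 0.08 to 0.24 (adjusted p = 0.0312). That of LA+NTP against LA moved from -0.16 to -0.37 (adjusted p = 0.00181), and neither was called. Txn2, the mitochondrial thioredoxin, had values of 0.37 in PA+NTP against PA and 0.56 in LA+NTP against LA, which were 0.09 and 0.19 after removal. Its values were -0.25 with palmitate and -0.40 with linoleate, or 0.02 and -0.11 after removal. Txnip, an inhibitor of thioredoxin, had values of -0.50 against PA and -0.51 against LA with NTP, or -0.42 and -0.41 after removal. Txnrd2, the mitochondrial reductase, passed the adjusted p in PA+NTP against PA (-0.28). After removal it passed in all 4 contrasts, at 0.35 with palmitate, 0.25 with linoleate, -0.55 in PA+NTP against PA and -0.34 in LA+NTP against LA.

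Among the 8 genes of glutathione and NADPH supply, Gsr alone was called, and only with palmitate. Gsr, the reductase that regenerates glutathione, showed 88.0 and 82.8 FPKM in Vehicle and 126 and 136 in PA. It showed 92.1 and 93.4 in PA+NTP, 102 and 94.7 in LA, and 77.7 and 74.8 in LA+NTP. The PA libraries lay above all others. The rise with palmitate was 0.65 (SE 0.06, adjusted p = 3.27e-06) and 0.66 after removal of the GC trend, with the call kept. The values with NTP were -0.55 against PA (adjusted p = 1.03e-05) and -0.41 against LA (adjusted p = 8.8e-05), under the fold threshold, and -0.56 and -0.41 after removal. Without PA 1 or PA+NTP 2 the former was -0.61 and -0.60 and passed that threshold.

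Gclc, the catalytic subunit of the enzyme that makes the first and rate-limiting bond of glutathione, showed 247 and 255 FPKM in Vehicle, 278 and 341 in PA, 233 and 254 in PA+NTP, 254 and 253 in LA, and 199 and 229 in LA+NTP. Its values were 0.34 with palmitate (SE 0.09, adjusted p = 0.00712) and -0.41 in PA+NTP against PA (adjusted p = 0.00201), which became 0.24 (adjusted p = 0.0528) and -0.30 (adjusted p = 0.0201) after removal of the GC trend. Its partner, the modifier subunit gene Gclm, had values of 0.45 and -0.37, which became 0.12 and -0.02, and its transcripts hold 42.1% GC. Pgd, which makes NADPH in the pentose phosphate pathway, showed 252 and 244 FPKM in Vehicle, 325 and 356 in PA, 286 and 309 in PA+NTP, 240.4 and 267 in LA, and 243 and 245 in LA+NTP.

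The PA and PA+NTP libraries of Pgd were above the other 6. Its palmitate value of 0.49 (SE 0.07, adjusted p = 6.8e-05) became 0.68 (adjusted p = 1.31e-05) and was called after removal of the GC trend. Its value in PA+NTP against PA was -0.25 and became -0.45, not called. Removal also moved its linoleate value from 0.08 to 0.28 (adjusted p = 0.0125). That of LA+NTP against LA moved from -0.10 to -0.36 (adjusted p = 0.00182), and neither was called. G6pdx, an enzyme before Pgd in that pathway, had values of -0.24 with palmitate, -0.26 with linoleate and 0.30 in LA+NTP against LA, none past the adjusted p after removal, and shares 12.6% of its sequence words with G6pd2. Glrx2, a mitochondrial glutaredoxin, had values of -0.36 against PA and -0.35 against LA with NTP, which became -0.10 and -0.02. Gss, which completes glutathione, and Glrx, a glutaredoxin, passed no adjusted p in the 4 contrasts. Once the GC trend was removed, Gss passed it in all 4, at 0.19 with palmitate, 0.36 with linoleate, -0.33 in PA+NTP against PA and -0.27 in LA+NTP against LA.

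Nfe2l2 itself was not called in any contrast and ranged from 155 to 198 FPKM over the 10 libraries. No contrast of it passed the adjusted p, whereas after removal of the GC trend 3 did, at -0.28 with palmitate (adjusted p = 0.00908), 0.21 in PA+NTP against PA (adjusted p = 0.0456) and 0.22 in LA+NTP against LA (adjusted p = 0.0388). Keap1 ranged from 12.0 to 18.9 FPKM and was not called either. Its values of -0.31 with linoleate and 0.30 in LA+NTP against LA passed the adjusted p and turned sign to 0.13 and -0.27 after removal of the GC trend, its transcripts holding 59.1% GC. These are transcript levels, and NRF2 protein was not measured here.

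Osgin1, a target of NRF2 and p53 that restrains growth under oxidative stress, had the richest GC content of the 40 genes (60.0%). It was measured at 451 and 463 FPKM in Vehicle, 218 and 256 in PA, 363 and 409 in PA+NTP, 258.5 and 256 in LA, and 503 and 499.5 in LA+NTP. The 4 libraries with an FFA alone were below the other 6. It fell by 0.91 with palmitate (SE 0.08, adjusted p = 1.12e-06) and by 0.78 with linoleate (SE 0.08, adjusted p = 5.83e-06). With NTP it rose by 0.64 over PA (adjusted p = 1.7e-05) and 0.92 over LA (adjusted p = 5.44e-07). Without the GC trend the values were -0.47, -0.30, 0.18 and 0.30, none of them called, with adjusted p values of 0.000538, 0.0184, 0.118 and 0.0121. The call of PA+NTP against PA was lost without PA 1 (0.53) or PA+NTP 2 (0.52).

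Mt2 was measured at 283 and 217 FPKM in Vehicle, 206 and 179 in PA, 314 and 306 in PA+NTP, 155 and 139.5 in LA, and 278 and 268 in LA+NTP. The LA libraries were the lowest and the PA+NTP libraries the highest. Mt2 fell with linoleate by 0.71 (SE 0.10, adjusted p = 0.000105), and rose with NTP by 0.63 over PA (SE 0.10, adjusted p = 0.000205) and 0.85 over LA (SE 0.10, adjusted p = 1.14e-05). These became -0.44, 0.37 and 0.50 after removal of the GC trend, still past the adjusted p and under the fold threshold. The Vehicle libraries were farther apart than in the other groups, and without Vehicle 1 the linoleate value was -0.51 and not called. Without PA 2 the value of PA+NTP against PA was 0.52 and not called.

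Its neighbor Mt1 had values of -0.35 with linoleate, 0.52 in PA+NTP against PA and 0.43 in LA+NTP against LA, all past the adjusted p and under the fold threshold. They were 0.05, 0.14 and -0.07 without the GC trend, none past the adjusted p. The palmitate value of Mt1 moved from -0.12 to 0.24 (adjusted p = 0.0241).

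The heme enzymes were not called, and Hmox2, the constitutive heme oxygenase, passed no adjusted p. Hmox1, the inducible heme oxygenase, ranged from 48.4 to 113 FPKM, with PA+NTP highest at 99.9 and 113 and LA lowest at 51.7 and 48.4. Its values were -0.47 with linoleate (adjusted p = 0.000157), 0.42 in PA+NTP against PA (adjusted p = 0.000252) and 0.40 in LA+NTP against LA (adjusted p = 0.000312), which became -0.31, 0.27 and 0.20, the last no longer past the adjusted p. The palmitate value of Hmox1, 0.13 (adjusted p = 0.149), became 0.28 (adjusted p = 0.00896). In PA+NTP against Vehicle its value was 0.56 (SE 0.07, adjusted p = 0.000218), and 0.55 after removal of the GC trend. Blvrb, a biliverdin and flavin reductase, had a value of 0.38 with palmitate that became 0.70 (adjusted p = 1.84e-05) and was called after removal. Its value in PA+NTP against Vehicle was 0.46, or 0.43 after removal. In LA+NTP against LA its sign turned, from 0.21 (adjusted p = 0.0262) to -0.24 (adjusted p = 0.028). Removal also moved its linoleate value from -0.07 to 0.28 (adjusted p = 0.0196). That of PA+NTP against PA moved from 0.07 to -0.26 (adjusted p = 0.0158). Nqo1, a quinone reductase often used to read NRF2 activity, was low at 9.46 to 15.4 FPKM. Its palmitate value of 0.46 (SE 0.14, adjusted p = 0.0131) became 0.32 (adjusted p = 0.0821).

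The GC content of the 40 genes and their fold changes moved together. Across the 40 genes, Spearman's rho between them was -0.44 with palmitate, -0.57 with linoleate, 0.47 in PA+NTP against PA and 0.67 in LA+NTP against LA. Pearson's r was -0.36, -0.54, 0.40 and 0.65. These describe genes that share the same libraries and are not replicates. After removal of the trend rho was 0.12, 0.23, -0.09 and -0.13. Of the 20 calls in these 4 contrasts 5 remained, which were Sod3, Msra and Gsr with palmitate, Sod3 with linoleate, and Sod3 in PA+NTP against PA. With Prdx5, Srxn1, Pgd and Blvrb with palmitate and Prdx5 and Srxn1 in PA+NTP against PA added, 11 calls stood after removal.

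**Figure D4:**
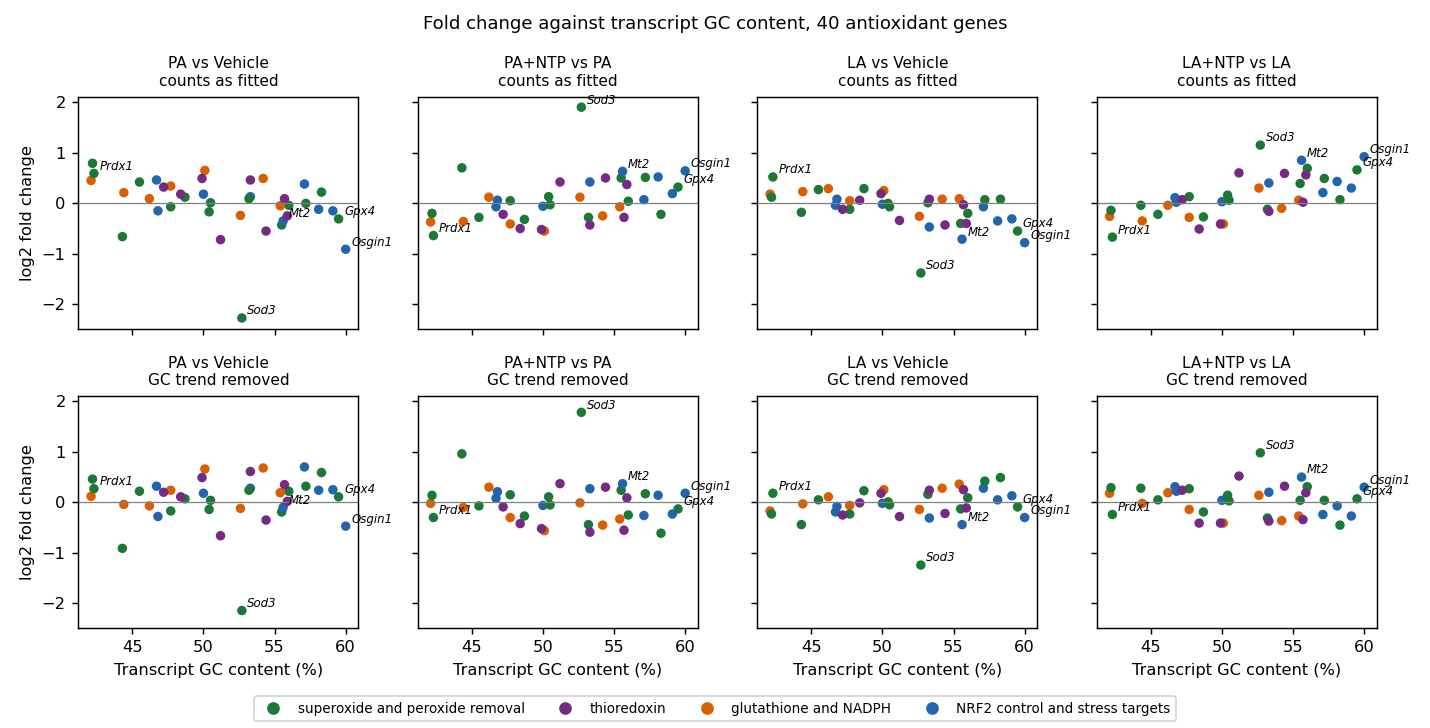
Log2 fold change of the 40 genes against the GC content of their transcripts in 4 contrasts (columns), as fitted (upper row) and after removal of the GC trend (lower row), colored by role. As fitted, rho was -0.44, 0.47, -0.57 and 0.67 from left to right, and 0.12, -0.09, 0.23 and -0.13 after removal.

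Against Vehicle, the groups with NTP differed in few of these genes. PA+NTP held 1 called gene, Sod2, at a background of 2.85% (1.21% higher), and 7 genes past the adjusted p at any fold, 6 of them higher, against 10.1% of all genes (4.50% higher). These 7 were Sod2, Gpx1, Hmox1, Blvrb, Mt1 and Pgd, all higher, and Osgin1, whose value was -0.27 (adjusted p = 0.0403). LA+NTP held no called gene by edgeR, DESeq2 or limma, at a background of 0.0922% in edgeR. At any fold 1 of the 40 genes, Gpx1, passed the adjusted p, against 0.284% of all genes. An unadjusted p under 0.05 was found for 10 of the 40 genes and 2014 of all 14097 genes. With the GC trend removed these groups held 1 and 0 called genes, at backgrounds of 2.81% and 0.0426%.

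The test of the difference between the NTP effects under palmitate and linoleate called none of the 40 genes by any of these tools, and edgeR called 0 of all genes tested. At an unadjusted p under 0.05, 7 of the 40 genes and 1029 of all genes were found. The largest of these 7 differences was that of Gpx4, -0.34 (95% interval -0.56 to -0.12, adjusted p = 0.629), and for Osgin1 it was -0.28 (-0.51 to -0.04, adjusted p = 0.644). They were -0.19 and -0.12 after removal of the GC trend. For Sod3 the interval was wide, 0.76 with bounds of -0.57 and 2.08, and for Gpx1 it was 0.02 with bounds of -0.14 and 0.19.

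A further list of 20 NRF2 targets outside the 40 genes was read in the same fit, all of them tested. With palmitate 4 were called higher and 2 lower, with linoleate 1 higher, in PA+NTP against PA 1 higher and 3 lower, and in LA+NTP against LA 2 higher and 1 lower. Over all genes, 6.00% were called higher and 8.92% lower with palmitate, 3.53% higher with linoleate, 8.74% higher and 5.11% lower in PA+NTP against PA, and 11.7% higher and 7.57% lower in LA+NTP against LA. Without the GC trend the counts in the list were 4 and 1, 0 and 0, 1 and 3, and 1 and 1, with 8.52%, 3.30%, 6.09% and 5.73% of all genes called in either direction. Fth1, the heavy chain of the iron store ferritin, was measured at 2156 and 1941 FPKM in Vehicle, 3733 and 3816 in PA, 2387 and 2379 in PA+NTP, 2840.3 and 2418 in LA, and 1924 and 1981 in LA+NTP. The PA libraries were above all others. It rose by 0.91 with palmitate (SE 0.08, adjusted p = 9.71e-07) and fell by 0.72 with NTP (adjusted p = 5.48e-06), and removal of the GC trend left 1.07 and -0.89.

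Gstm3, a glutathione transferase of the mu class, showed the opposite signs, with 189 and 159.6 FPKM in Vehicle, 99.2 and 71.8 in PA, 198 and 158 in PA+NTP, 138 and 125 in LA, and 305 and 257 in LA+NTP. It fell by 1.01 with palmitate (SE 0.14, adjusted p = 5.89e-05) and rose by 1.02 over PA and 1.05 over LA with NTP. All of these calls held after removal of the GC trend, at -0.87, 0.87 and 0.87. Gsta2, of the alpha class, rose by 0.71 with palmitate and Gsta1 by 0.63 with linoleate, and each of these calls was lost without Vehicle 2, at 0.57 in both. Without the GC trend Gsta2 was 0.60 and called, and Gsta1 was 0.51 and not called. Gstm1 rose by 0.63 in LA+NTP against LA, which became 0.41 and was not called, nor was it without LA 2 (0.58). Ugdh, which makes UDP-glucuronic acid, fell with NTP by 0.85 against PA and by 0.72 against LA, or -0.67 and -0.49 after removal. The genes of this list thus did not move one way with palmitate, and their median fold change was 0.119, against -0.008 over all genes. Genes of the glutathione transferase families resemble each other in sequence, so their counts may be divided among copies.

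Of 13 regulators and partners of NRF2, all tested, Crebbp was called in all 4 contrasts and Cul3 in both NTP contrasts. No other gene of the list was called, so 1 was lower with each FFA, and 1 higher and 1 lower in each NTP contrast. Over all genes 14.9% were called with palmitate, 10.6% with linoleate, 13.9% in PA+NTP against PA and 19.3% in LA+NTP against LA. Crebbp, a coactivator that acetylates NRF2 among many other factors, was measured at 11.4 and 11.3 FPKM in Vehicle, 6.52 and 7.19 in PA, 11.3 and 12.5 in PA+NTP, 6.58 and 6.59 in LA, and 11.4 and 12.0 in LA+NTP. The 4 libraries with an FFA alone were below the other 6. Its fold changes were -0.69, -0.74, 0.73 and 0.79 in the order palmitate, linoleate, NTP before palmitate and NTP before linoleate. They stayed called at -0.61, -0.66, 0.65 and 0.69 after removal of the GC trend. Cul3, the scaffold of the ubiquitin ligase that KEAP1 recruits to NRF2, fell with NTP by 0.60 against PA and by 0.64 against LA, which became -0.12 and -0.05 and were no longer called. Without PA+NTP 1 the former was -0.54 and not called.

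Of 23 further thiol, NADPH and metal genes, 20 were tested. With each FFA 1 of them was called higher and 2 lower. In PA+NTP against PA 2 were called higher and 0 lower, and in LA+NTP against LA 2 higher and 2 lower. Over all genes 14.9% were called with palmitate, 10.6% with linoleate, 13.9% in PA+NTP against PA and 19.3% in LA+NTP against LA. Ucp2, an uncoupling protein of the inner mitochondrial membrane, was low, at 1.12 and 0.93 FPKM in Vehicle, 0.38 and 0.33 in PA, 0.81 and 0.93 in PA+NTP, 0.39 and 0.56 in LA, and 1.16 and 1.56 in LA+NTP. Both FFA groups lay below the other groups. It fell by 1.51 with palmitate (SE 0.27, adjusted p = 0.000377) and by 1.08 with linoleate (SE 0.25, adjusted p = 0.00307), and rose with NTP by 1.26 over PA and 1.52 over LA. All 4 calls held after removal of the GC trend, at -1.29, -0.84, 1.03 and 1.21, and the linoleate call was lost without LA 1 (-0.82, adjusted p = 0.0502). Pgls, the enzyme between G6pdx and Pgd in the pentose phosphate pathway, had values of -0.90, -0.97, 0.89 and 1.22 in the same order, all called, which became -0.27, -0.27, 0.23 and 0.32 and were not.

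In the same list Txnrd3, a thioredoxin reductase best known from testis, rose by 0.72 with palmitate, and by 0.84 after removal of the GC trend. Chac2, which degrades glutathione, rose by 0.59 with linoleate and fell by 0.70 with NTP before it. Those values were 0.07 and -0.07 after removal, and both calls were lost without LA 1 (0.38 and -0.50), the linoleate call also without Vehicle 2 (0.53).

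Of 9 genes for sources of superoxide and hydrogen peroxide, all tested, 1 was called higher with palmitate and 1 higher in PA+NTP against PA. With linoleate and in LA+NTP against LA 1 was called higher and 1 lower. Over all genes 14.9% were called with palmitate, 10.6% with linoleate, 13.9% in PA+NTP against PA and 19.3% in LA+NTP against LA. Cybb changed most. Cybb encodes the catalytic subunit of the phagocyte NADPH oxidase. It was measured at 0.72 and 0.78 FPKM in Vehicle, 3.99 and 4.03 in PA, 3.05 and 3.39 in PA+NTP, 0.76 and 0.81 in LA, and 0.53 and 0.63 in LA+NTP. The 4 libraries with palmitate were above the other 6 without overlap. It rose by 2.44 with palmitate (SE 0.15, adjusted p = 7.63e-08) and stayed higher in PA+NTP than in Vehicle by 2.07 (SE 0.14, adjusted p = 2.18e-06). Removal of the GC trend left 2.12 and 2.09.

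Markers of Kupffer cells and other macrophages, which express Cybb, were read beside it. The summed FPKM of 8 such markers, most of it Cd68, was 208 in both Vehicle libraries, 202 to 238 in PA, 267 to 296 in PA+NTP, 126 to 130 in LA, and 182 to 196 in LA+NTP. Marco, a scavenger receptor of macrophages, moved with Cybb, at 0.67 and 0.58 FPKM in Vehicle, 3.95 and 2.90 in PA, and 3.36 and 4.59 in PA+NTP. Adgre1, the macrophage marker F4/80, was higher in PA+NTP than in Vehicle by 1.16 (SE 0.34, adjusted p = 0.0419) and by 1.17 after removal of the GC trend, at 0.34 and 0.56 FPKM in Vehicle, 1.00 and 0.52 in PA, and 0.97 and 1.12 in PA+NTP. Csf1r, a receptor of macrophages, had values of 0.10 with palmitate and 0.85 in PA+NTP against Vehicle (adjusted p = 0.125). The Kupffer cell markers Clec4f, Vsig4 and Timd4 stayed at 0.30 FPKM or less in every library, and Cd5l was called lower with palmitate (-1.11). The part of macrophages in the Cybb result was not tested.

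Cyba, the membrane partner of NADPH oxidases, fell by 1.01 with linoleate and rose with NTP by 0.71 over PA and 1.09 over LA, none of which was called after removal of the GC trend (-0.56, 0.28 and 0.52). The linoleate call was lost without Vehicle 2 (-0.84), and that of PA+NTP against PA without PA 1 (0.61), PA 2 (0.87) or PA+NTP 2 (0.54). Rac2, a small GTPase of the same complex, rose by 0.80 with linoleate and fell by 0.67 with NTP before it, or 0.93 and -0.84 after removal. These calls were lost without LA 1 (0.73 and -0.60), and the second also without LA+NTP 1 (-0.62).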

How the data were processed

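The authors aligned reads with HISAT and Bowtie2 and quantified genes with RSEM, and the submitters' processing notes name mm10. The annotation, tool versions and strand setting were not found in these sources. The deposited tables list, per library, each gene's expected count, which is RSEM's estimate without normalization between libraries, and the authors' FPKM, scaled for transcript length and library size. The lowest FPKM listed was 0.01, and genes absent from a library's table were set to 0. Of 18055 NCBI gene IDs, 17998 matched the RefSeq table of GRCm38.p6 by ID and 11 by accession. GC content came from GENCODE M21 transcripts for 98.4% of genes.

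Expected counts were rounded and fitted in edgeR 4.0.16 (R 4.3.3) with a factor of 5 groups and all 10 libraries, TMM factors from 0.977 to 1.037, filterByExpr (3958 genes dropped) and quasi-likelihood F tests, with Benjamini-Hochberg adjustment over 14097 genes. The GC trend was a loess (span 0.4) per library, entered as an offset. Groups and replicate numbers came from the titles, since file names carry other numbers. No 2 replicates held identical values, and all differed by more than sampling noise. In simulated PA against Vehicle data over 14097 genes, 146 of 200 genes changed 2-fold were recovered (73%), and 141 of the 145 with a mean count of at least 100 (97.2%), with 2 false calls. These data were drawn without a GC trend between groups, so the false calls do not bear on calls that depend on it. Precision was set by 13142588 to 60046937 expected counts per library and 2 libraries per group.

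All 40 genes are named. Values per library are given for those called with an FFA or NTP and for the top 2 of each role by Vehicle FPKM, and of each further list up to 3 called genes per contrast. The 40 genes and the lists were chosen with earlier results of these data known. Alternatives were DESeq2 1.42.0, RLE or library-size scaling, no filter, no fold threshold, limma 3.58.1 on log2(FPKM + 1), removal of the GC trend, the replicate number as a block, both together, only the groups compared, and leaving out each library. Sequence shared between genes was the share of a gene's 31-base words found in transcripts of other genes.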

Additional observations from a re-analysis of the deposited data

How the results depend on the processing

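Among the 40 genes, 21 calls were made over all contrasts, and no call changed sign under any alternative. DESeq2 kept 20, RLE scaling 21, library-size scaling 19, no filter 21, limma on log2(FPKM + 1) 14, fits of only the groups compared 19, and fits without 1 library 16 to 19. Removal of the GC trend kept 6, and the cause was not tested. Without a fold threshold, the number of genes called was 22 with palmitate, 15 with linoleate, 25 in PA+NTP against PA, 23 in LA+NTP against LA, 7 in PA+NTP against Vehicle and 1 in LA+NTP against Vehicle. With the GC trend removed, linoleate left 1 gene and LA+NTP against LA 0. Limma left 2 in PA+NTP against PA, and the fit of only the groups compared left 0 in PA+NTP against Vehicle.

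When each library was left out in turn, the counts ranged from 4 to 7 with palmitate, 1 to 3 with linoleate (1 without Vehicle 1), 3 to 5 in PA+NTP against PA, 3 to 8 in LA+NTP against LA (3 without LA 2) and 0 to 2 in PA+NTP against Vehicle. They stayed at 0 in LA+NTP against Vehicle and in the difference between the NTP effects. Deviations of same-numbered libraries correlated between -0.085 and 0.129. With 2 libraries per group this cannot settle whether the replicate numbers of the labels paired the libraries. The fit with the replicate block kept all 21 calls, and the block with the GC trend removed kept 5, with 0 genes in LA against Vehicle and 0 in LA+NTP against LA.

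With 2 libraries per group, depth limited Sod3 most among the called genes, at 2 to 66 counts. The recovery on simulated data applies to 2-fold changes alone.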
